A study of Homo sapiens with 12 samples.

Results

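The tumour suppressor p53 is a transcription factor that cells keep at a low level until DNA damage, loss of ribosomal balance or another stress stabilises it. It then switches on genes that halt the cell cycle, repair DNA, adjust metabolism or start apoptosis, and some of its targets, MDM2 above all, feed back to remove it. Loss of survival motor neuron (SMN) protein is known to bring on a p53 response in motor neurons of mouse models of spinal muscular atrophy. Mature neurons no longer divide, so arrest genes such as *CDKN1A* may serve them in ways other than stopping a cycle. What these genes do in the cells used here was not measured, and some markers of dividing cells were present, as given below.

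The genes described here are 34 direct targets of p53, taken by symbol from a list whose rule uses no measured value, although the list was drawn up with earlier results of these data known. All 34 had 1 row in the table of each cell type, among 16406 genes in motor neurons and 19016 in NGN2 neurons, and 16093 genes were in both tables. They fall into 5 arrest genes, 10 genes of apoptosis and cell death control, 4 repair genes, 4 feedback genes, 7 genes of metabolism and mitochondria and 4 others.

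Total RNA of human neurons was sequenced after 12 days of *SMN* knockdown. Motor neurons (iMNs, HB9-iMN in the labels) came from an HB9-Td-Tomato iPSC line and were sorted on a fluorescent protein driven by the HB9 promoter. Glutamatergic neurons (i3Ns, iNeuron in the labels, where their cell type is cortical neuron) came from H1, an established human embryonic stem cell line with inducible NGN2. Each cell type had 3 libraries with a scrambled shRNA (SCR) and 3 with an shRNA against *SMN1* and *SMN2* (*SMN*-KD), so every group, controls included, carried a doxycycline-inducible lentiviral shRNA.

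The quantity used is the authors' mean normalized count, 1 value for each gene and cell type, which pools the SCR and *SMN*-KD libraries. The values of single libraries and the effect of the knockdown on these genes were not analysed here, and no check of *SMN1* and *SMN2* against the labels was made. Because both groups are equally large, the mean of the SCR libraries alone can lie anywhere between 0 and 2 times the pooled mean. No spread between libraries goes with these means, so no difference below was tested and none is shown to exceed replicate error. Depth per library is unknown, and the pooled means of all genes summed to much the same total in both tables, 43320600 in iMNs and 45043400 in i3Ns.

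Each cell type is 1 stem cell line and 1 differentiation protocol, so cell type, line and protocol cannot be told apart. In bulk RNA, fewer cells of a type and less RNA per cell cannot be told apart either. The labelled cell types were set against markers. The 6 general neuron markers had centred log2 differences (i3Ns over iMNs) in both directions. These were 1.45 for *NEFL*, 0.16 for *TUBB3*, -0.05 for *STMN2*, -0.55 for *MAP2*, -0.58 for *RBFOX3* and -1.77 for *SYN1*. The cholinergic gene *SLC5A7*, the choline transporter of motor neurons, had a pooled mean of 8460 in iMNs and 2472 in i3Ns. The vesicular acetylcholine transporter *SLC18A3* had 3115 and 1865, and *CHAT*, which makes acetylcholine, had 533 and 527, while the motor neuron transcription factors *MNX1* (HB9 itself, 430 and 2279), *ISL1* (1663 and 14299), *ISL2* (70.6 and 3558) and *LHX3* (15.1 and 230) had the higher mean in i3Ns. These 4 genes thus go against the labels, in which the iMNs are the motor neurons, and every difference between i3Ns and iMNs below rests on libraries whose cell identity these markers leave in doubt. Of the 6 glutamatergic and cortical markers, *SLC17A6* (593 and 11237), *SLC17A7* (50.1 and 6490) and *TBR1* (10.2 and 1801) were far higher in i3Ns, while *GRIA2* (4956 and 5070), *CUX2* (1734 and 2033) and *CUX1* (6662 and 5354) had centred differences of -0.07, 0.13 and -0.41. Markers of dividing cells were listed for 4 of 5 genes in iMNs and 5 of 5 in i3Ns, with summed means of 240 and 1263. *CCNB1* (162 and 249, difference 0.52) made up most of the sum in iMNs. Larger differences were seen for *MKI67* (28.3 and 522, difference 4.06), *TOP2A* (22.5 and 311, difference 3.63) and *BUB1* (27.4 and 118, difference 1.97). *CDK1* was listed only in i3Ns, at 63.4. Of 5 glial genes, 3 were listed in iMNs and 2 in i3Ns, with summed means of 385 and 1054, and the astrocyte genes *GFAP* and *AQP4* were listed in neither table. All 5 mesenchymal genes were listed in both, with summed means of 2840 and 6579. The stem cell gene *LIN28A* had means of 215 and 4216. *POU5F1* and *NANOG* were not listed in iMNs and were low in i3Ns, at 34.4 (summed over 4 gene identifiers) and 7.73. All 7 motor neuron markers were listed in both tables, with summed means of 14287 and 25231. The part of any of these cells in the values below was not tested.

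Binding by p53 rests on a 10-base motif, the p53 decamer, whose definition is the same on both strands. It was searched in RefSeq windows (GRCh38.p14) from 250 bases before to 50 bases after a start site, available for 28 of the 34 genes. A decamer was present for 7 of the 28 (25%), against 8.06% of 27305 genes with such windows. Only *DDB2* among the members had a pair of decamers at most 13 bases apart, which 10 genes had in all (0.0366%). Some genes had more than 1 window, and by window the shares with a decamer were 17.5% of 40 for members and 6.63% of 35116 for all genes. The members were listed as direct targets of p53, so their higher share is no independent support for the list. The members with a match are shown with the decamer in capitals and each strand read in the direction of the gene.

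*DDB2*, chr11:47214975-47215003, plus strand: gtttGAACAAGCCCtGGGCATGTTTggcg
*SESN1*, chr6:109009018-109009047, minus strand: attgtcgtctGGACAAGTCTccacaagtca
*FAS*, chr10:88991299-88991328, plus strand: cggaactcctGGACAAGCCCtgacaagcca
*RPS27L*, chr15:63157517-63157546, minus strand: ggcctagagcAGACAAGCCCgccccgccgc
*PLK2*, chr5:58460199-58460228, minus strand: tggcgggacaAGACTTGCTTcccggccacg
*AEN*, chr15:88621296-88621325, plus strand: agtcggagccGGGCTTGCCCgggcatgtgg
*FDXR*, chr17:74872986-74873015, minus strand: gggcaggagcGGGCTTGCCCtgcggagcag

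The decamers of *DDB2* are separated by 1 base and start at position 6 of the transcript, and the others start upstream, from position -11 relative to the start site in *FDXR* to position -132 in *PLK2*. The decamers of *AEN* and *FDXR* have the same letters. Apart from that of *DDB2*, each window shown holds 1 decamer and no second one by this definition. A match is a description of these windows, and many p53 sites lie outside them, for example in introns.

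All 34 targets were expressed in both cell types by the pooled mean. The median member lay above 58.2% of the genes of the iMN table and 72.3% of those of the i3N table. The i3N table lists more weakly expressed genes, and among the genes in both tables the same medians were 57.5 and 67.4. These percentiles, and those given for single genes below, are of means not divided by transcript length, so longer genes stand higher in them. The plot of pooled means by role shows how the members spread over more than 2 orders of magnitude.

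**Figure D1:**
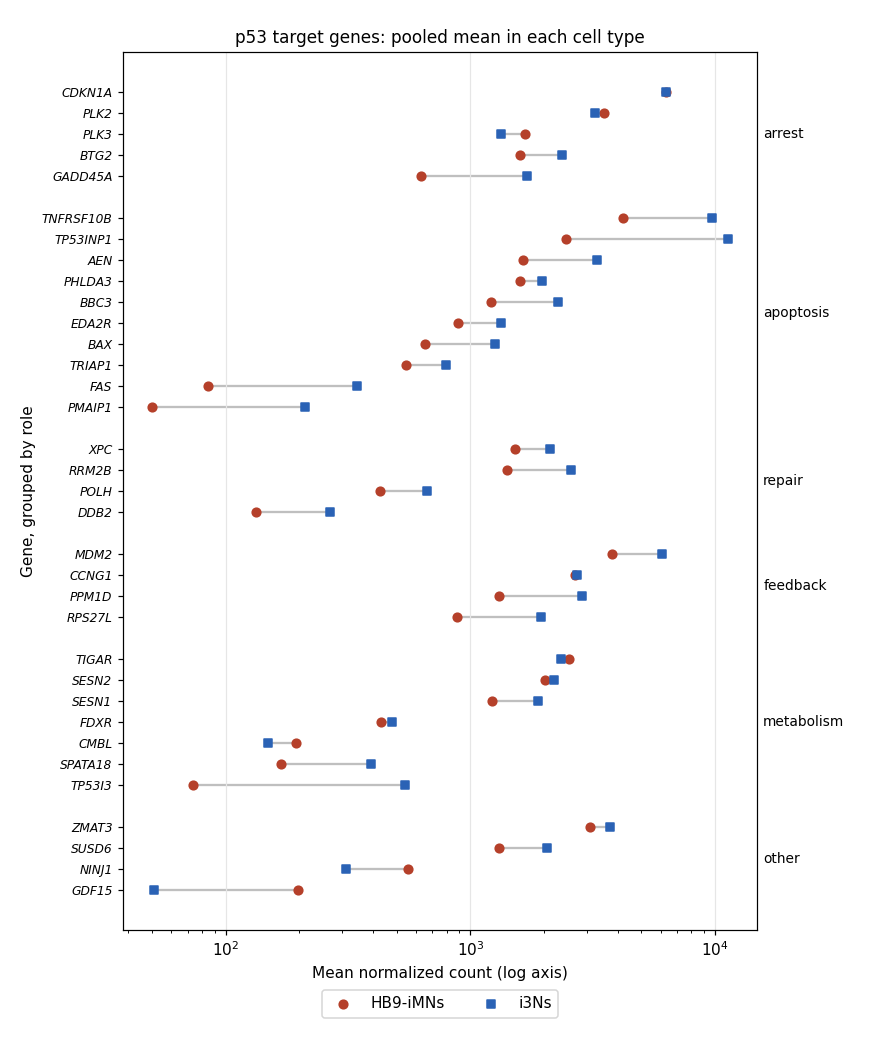
Authors' mean normalized count (x axis, log scale, pooled over SCR and SMN-KD libraries) of 34 p53 targets in iMNs (circles) and i3Ns (squares), with genes grouped by role on the y axis and no error bars, since the means carry none. All 10 apoptosis genes and all 4 repair genes have the square to the right of the circle, while *CDKN1A* has both symbols on top of each other at 6294 and 6321. *NINJ1*, which acts in dying cells but is grouped under other, has its square to the left of the circle.

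To set the cell types side by side, the log2 ratio of pooled means (i3Ns over iMNs, pseudocount 1) was centred on the median ratio of the 15170 genes with a mean of at least 10 in both tables, which all 34 members reached. The tables were normalized separately, and this centring took off 0.10 on the log2 scale. Of the 34 members, 26 (76.5%) had a positive centred difference, that is a higher level in i3Ns relative to the median gene, against 50% of all genes by construction. The median difference of the members was 0.53 on the log2 scale, against 0 for all genes. A difference past 1 on the log2 scale (2-fold) was called higher for 9 members and lower for 1, where 9.32% of all genes were called higher and 12.3% lower. Among the members these shares were 26.5% and 2.94%.

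**Figure D2:**
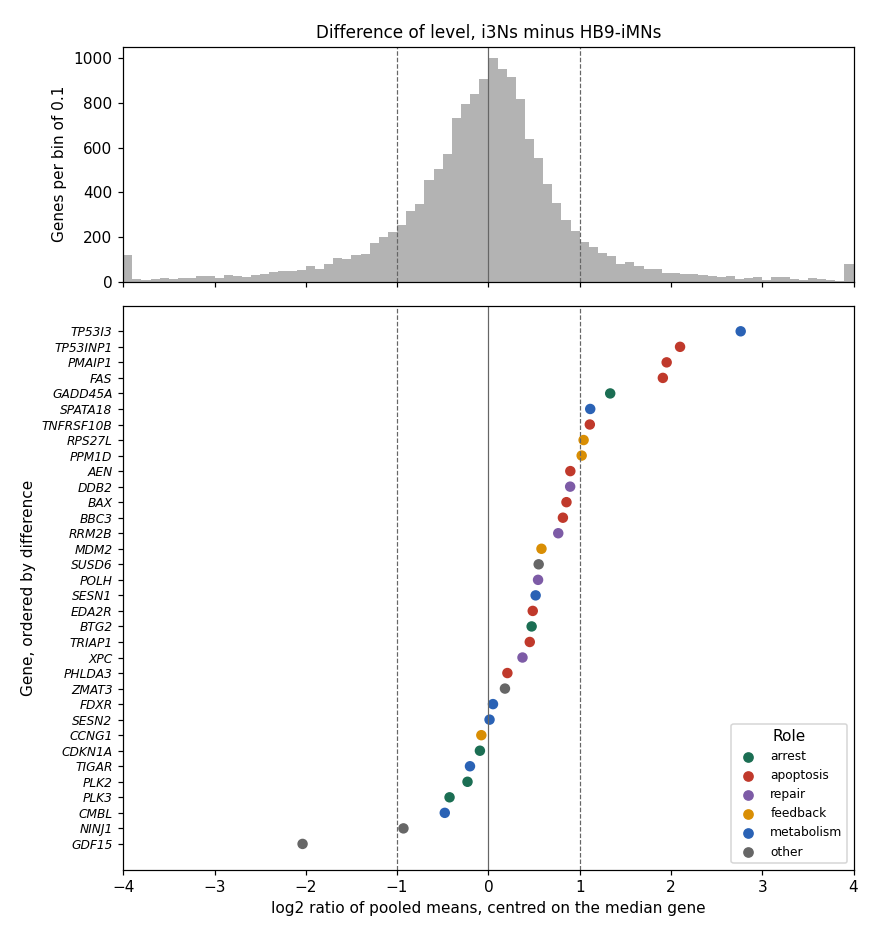
Centred log2 ratio of pooled means, i3Ns over iMNs (x axis), as a histogram of 15170 genes (top, values past 4 in either direction in the end bins) and for each of 34 p53 targets coloured by role (bottom), with dashed lines at 2-fold. The members run from *GDF15* at -2.04 to *TP53I3* at 2.76, and 9 of them lie to the right of the upper dashed line.

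Among the arrest genes, the pooled means of *CDKN1A* were nearly equal in both cell types. This gene (ENSG00000124762, chr6:36676460-36687337, plus strand, GRCh38 with GENCODE release 44 here and for the genes that follow) encodes p21, the inhibitor of cyclin-dependent kinases that carries much of the arrest by p53. Its mean normalized count was 6294 in iMNs and 6321 in i3Ns, above 90.3% and 91.1% of the genes of each table, and its centred difference was -0.09 on the log2 scale. *GADD45A* (chr1:67685201-67688334, plus strand), a stress protein that binds PCNA and cyclin-dependent kinases, had the largest difference of the 5, with means of 628 and 1698 and a centred difference of 1.33. This was 2.52-fold, larger than the difference of 93.9% of all genes. *BTG2*, an antiproliferative partner of the mRNA deadenylase complex, had means of 1592 and 2369 (difference 0.47). The stress-responsive polo-like kinases *PLK2* and *PLK3* lay on the other side of 0. *PLK2* had means of 3530 and 3227 (difference -0.23), and *PLK3* had 1674 and 1335 (difference -0.43). The median of the 5 arrest genes was -0.09, the lowest of the named roles.

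All 10 genes of apoptosis and cell death control (100%) had a higher centred level in i3Ns, against 50% of all genes by construction. Their median difference was 0.88 on the log2 scale, and 4 of the 10 (40%) were called higher, against 9.32% of all genes. *TP53INP1* (ENSG00000164938, chr8:94925972-94949378, minus strand), which encodes a nuclear body protein that promotes p53 phosphorylation and autophagy, led them. Its mean normalized count was 2464 in iMNs and 11312 in i3Ns, a centred difference of 2.10 or 4.28-fold, and in i3Ns it lay above 96.2% of genes. *PMAIP1* (chr18:59899996-59904305, plus strand), the BH3-only protein NOXA, had means of 49.97 and 210.3, a centred difference of 1.95. Outside these 10, *NINJ1*, which ruptures dying cells but was grouped with the remaining targets, went the other way (difference -0.93). The direction shared by all 10 thus depends on how roles were assigned. Most of the 19 further p53 targets described below also lay above 0 (84.2%), and 21.1% of them were called higher.

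The other BH3-only gene and its effector differed less. *BBC3* (chr19:47220822-47232766, minus strand), which encodes PUMA, had means of 1214 and 2290 and a centred difference of 0.82. *BAX* (chr19:48954815-48961798, plus strand), the pore-forming protein of the outer mitochondrial membrane, had means of 652 and 1263 and a difference of 0.86. Neither reached the 2-fold line.

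The receptors of the tumour necrosis factor family were all higher in i3Ns. *FAS* (chr10:88953813-89029605, plus strand), the receptor for FAS ligand, had means of 84.6 and 344 and a centred difference of 1.91, or 3.76-fold. *TNFRSF10B* (chr8:23020133-23069031, minus strand), the TRAIL receptor DR5, had means of 4219 and 9762 and a difference of 1.11. *EDA2R*, a receptor for ectodysplasin of the same family, had means of 891 and 1336 (difference 0.49). Per kilobase of the MANE Select transcript (the reference transcript of each gene), the level of *TNFRSF10B* was 46.1 times that of *FAS* in iMNs and 26.2 times in i3Ns. By coding length the ratios were 38.0 and 21.6, and by the longest annotated transcript, which is 16484 bases long for *FAS*, they were 205.5 and 117.

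None of the remaining death control genes (0 of 3) reached the 2-fold line. *AEN*, a nuclease of the apoptotic nucleus, had means of 1649 and 3291 (difference 0.90). *TRIAP1*, a small mitochondrial protein that protects cells from apoptosis, had means of 544 and 798 (difference 0.45). *PHLDA3*, which restrains the survival kinase AKT, had means of 1589 and 1967 (difference 0.21). Of the 31-base words of the *PHLDA3* transcript, 22.8% also occurred in transcripts of other genes, so its reads could have been split between genes by the quantification.

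The 4 repair genes were all higher in i3Ns by less than 2-fold, where 50% of all genes lay above 0. Their median difference was 0.65, and none (0%) was called higher, beside 9.32% of all genes. *DDB2* (ENSG00000134574, chr11:47214465-47239217, plus strand), whose window holds the pair of decamers shown above, recognises ultraviolet lesions for nucleotide excision repair. Its pooled means were 134 and 267 and its centred difference was 0.90. It was the weakest repair gene in both cell types per kilobase of coding length, and *POLH* was the weakest per kilobase of MANE transcript. *XPC*, which recognises lesions in the same pathway, had means of 1520 and 2110 (difference 0.37). Per kilobase of MANE transcript its level was 5.66 times that of *DDB2* in iMNs and 3.93 times in i3Ns. The ratios were 5.17 and 3.59 by coding length, and 9.66 and 6.71 by the longest transcript. *RRM2B*, the p53-inducible subunit of ribonucleotide reductase that supplies nucleotides outside S phase, had means of 1416 and 2580 (difference 0.77). *POLH*, a polymerase that copies past lesions, had means of 427.5 and 668 (difference 0.54), and 13.6% of its 31-base words occurred in other genes.

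By means not divided by length, the 4 feedback genes lay above the median gene of each table. Per kilobase of MANE transcript, *RPS27L* lay above only 32.8% of genes in iMNs and 52.4% in i3Ns, and *PPM1D* above 45.7% and 68.3%. *MDM2* and *CCNG1* stayed above the median gene in both. By coding length, *RPS27L* lay above 85.3% and 94.7%. *MDM2* (ENSG00000135679, chr12:68808177-68845544, plus strand), the ubiquitin ligase that marks p53 for destruction, had a mean normalized count of 3782 in iMNs and 6062 in i3Ns. These lay above 82.4% and 90.6% of genes, and the centred difference was 0.58. *PPM1D* (chr17:60600193-60666280, plus strand), which encodes WIP1, the phosphatase that reverses p53 phosphorylation, had means of 1313 and 2857 and a difference of 1.02. *RPS27L* (chr15:63125872-63158021, minus strand), a ribosomal protein that binds MDM2, had means of 884 and 1951 and a difference of 1.04. Both of these lay just past the 2-fold line. Of the 31-base words of *RPS27L*, *MDM2* and *PPM1D*, 13.7%, 10.9% and 5.32% also occurred in transcripts of other genes. *CCNG1*, a cyclin that recruits phosphatase 2A to MDM2, had means of 2683 and 2725 (difference -0.08) and was level between the cell types.

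Members just inside and just outside the 2-fold line were close to each other. The lowest values called were 1.02 for *PPM1D* and 1.04 for *RPS27L*, and the highest values not called were 0.90 for *AEN* and 0.90 for *DDB2*.

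The genes of metabolism and mitochondria held the largest difference of all 34 and also some of the smallest. *TP53I3* (ENSG00000115129, chr2:24077433-24085861, minus strand), known as PIG3, is a quinone oxidoreductase linked to oxidative stress. Its mean normalized count was 73.2 in iMNs and 539 in i3Ns, a centred difference of 2.76 or 6.79-fold, larger than that of 98.5% of all genes. *SPATA18* (chr4:52051304-52097299, plus strand), a protein of mitochondrial quality control, had means of 169 and 393 and a difference of 1.12. Both were called higher in i3Ns.

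The sestrins, which hold back mTORC1 under stress, and the other metabolic genes showed small differences. *SESN2* had means of 2030 and 2193 (difference 0.01), and *SESN1* had 1229 and 1885 (difference 0.52). Per kilobase of MANE transcript, *SESN2* was 2.70 times the level of *SESN1* in iMNs and 1.90 times in i3Ns. By coding length the ratios were smaller, at 1.90 and 1.34. *TIGAR*, which lowers fructose-2,6-bisphosphate and so slows glycolysis, had means of 2524 and 2351 (difference -0.20), and 26.1% of its 31-base words occurred in other genes, the most of any member. *FDXR*, the reductase that feeds electrons to mitochondrial ferredoxins, had means of 430 and 477 (difference 0.05). *CMBL*, a cytosolic hydrolase, had means of 195 and 149 (difference -0.48), and 7.33% of its 31-base words occurred in other genes.

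Of the 4 remaining targets, *GDF15* was the only member called lower in i3Ns. *GDF15* (ENSG00000130513, chr19:18374731-18389176, plus strand) is a secreted stress cytokine. Its mean normalized count was 197 in iMNs and 50.9 in i3Ns, a centred difference of -2.04, or 4.10-fold higher in iMNs. Only 3.96% of all genes had a lower difference. *NINJ1*, the membrane protein that ruptures dying cells, came next with means of 555 and 312 (difference -0.93). *ZMAT3*, an RNA-binding zinc finger protein, had means of 3075 and 3735 (difference 0.18), and *SUSD6*, a membrane protein, had 1315 and 2064 (difference 0.55).

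To set the levels of different members in order, the means were divided by transcript length. Per kilobase of MANE transcript, *CDKN1A* stood first in both cell types with 2973 and 2986 normalized counts. In iMNs it was followed by *PLK2* (1267), *CCNG1* (1098), *TNFRSF10B* (1055) and *BAX* (819.5). In i3Ns it was followed by *TNFRSF10B* (2442), *TP53INP1* (2018), *BAX* (1589) and *GADD45A* (1256). Of the 10 highest members per kilobase, 7 were the same genes in both cell types. The lowest were *FAS* (22.9) and *PMAIP1* (26.3) in iMNs and *CMBL* (38.4) and *GDF15* (42.4) in i3Ns. No spread goes with these values, so neighbours in either order cannot be said to differ.

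**Figure D3:**
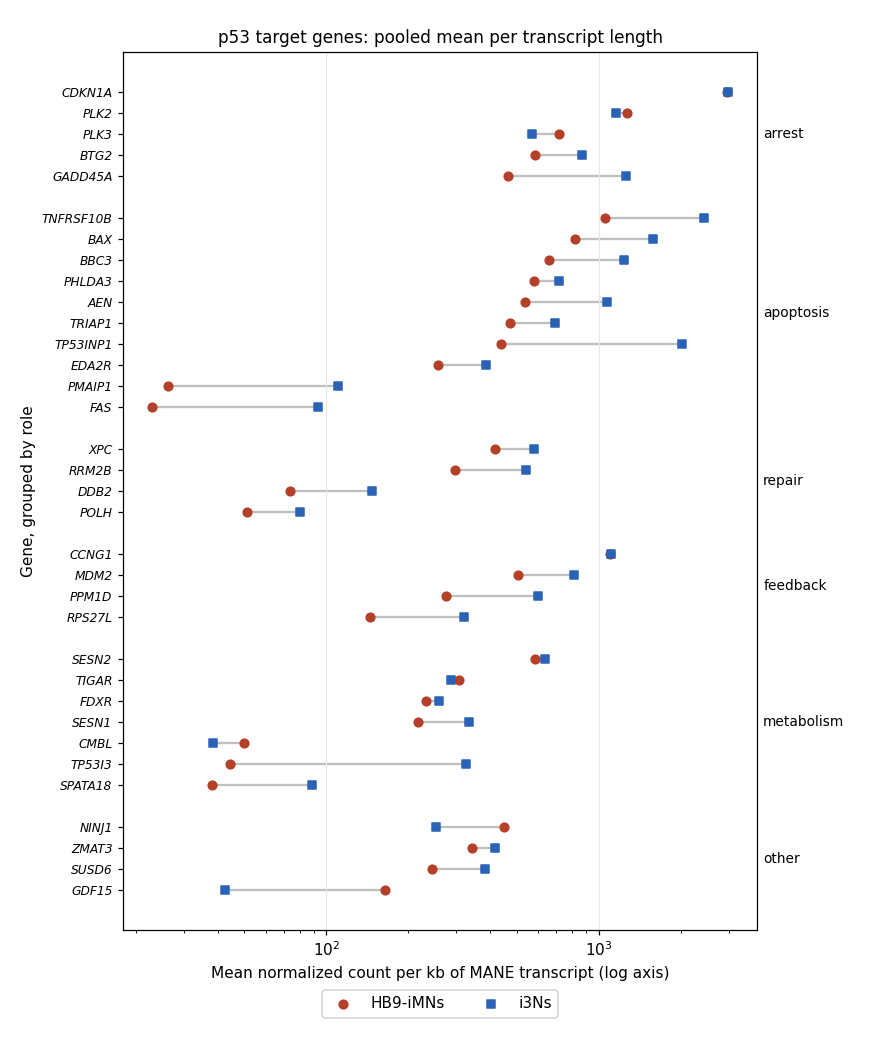
Authors' mean normalized count per kilobase of the MANE Select transcript (x axis, log scale) of 34 p53 targets in iMNs (circles) and i3Ns (squares), grouped by role on the y axis and with no error bars. *CDKN1A* stands furthest to the right in both cell types at 2973 and 2986, and *FAS* and *PMAIP1* are the lowest in iMNs at 22.9 and 26.3.

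This order depends on the length used. By coding length, 5 of the 10 highest members in each cell type were still among the 10 highest. *RPS27L* moved furthest in iMNs, from place 27 to place 4 in iMNs, since its MANE transcript of 6110 bases codes for a protein in only 252 of them. By coding length, *TP53INP1* rather than *CDKN1A* was first in i3Ns.

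Of 19 genes listed as regulators of p53, 18 were in both tables and 17 reached a mean of 10 in both, of which 12 lay above 0 and 5 below. Of these 17, 1 was called higher (5.88%) and none (0%) lower, beside 9.32% and 12.3% of all genes. The median of the regulators was 0.10. The regulator called higher was *CHEK1*, a checkpoint kinase, with means of 426 and 1355 (difference 1.57). The deacetylase *SIRT1* was also among the higher ones (1263 and 2034, difference 0.59). At the other end were the damage kinase *ATR* (2059 and 1444, difference -0.61), the kinase *HIPK2* (20745 and 17577, difference -0.34) and the acetyltransferase *KAT5* (1855 and 1586, difference -0.33). *MDM4*, the partner of MDM2, had means of 2568 and 3192 (difference 0.21).

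Another 20 p53 targets outside the 34 were listed in both tables, and 19 reached a mean of 10 in both. Of these, 16 lay above 0 and 3 below, and the median was 0.44. Of the 19, 4 were called higher (21.1%) and 1 lower (5.26%), beside 9.32% and 12.3% of all genes, and the gene called lower is not reported here. The highest were *KITLG*, the ligand of the KIT receptor (1229 and 8342, difference 2.66), the decoy TRAIL receptor *TNFRSF10D* (159 and 807, difference 2.24) and the helicase *ASCC3* (3258 and 9261, difference 1.41). Those below 0 included the membrane protein *PERP* (1214 and 901, difference -0.53) and the cytokine *LIF* (41.8 and 43.5, difference -0.04). *TNFRSF10A*, the other death-signalling TRAIL receptor, had means of only 16.5 and 28.0.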

How the data were processed

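Total RNA libraries depleted of ribosomal RNA were sequenced as paired reads. The authors removed adapters with fastp, estimated transcript abundance with Salmon and passed it to DESeq2. STAR and hg38 served their splicing analysis, which is not used here. Versions, the transcript annotation and the filter on low counts are not given in the sources used here. The deposited signal is the column of the authors' DESeq2 tables that holds the mean of counts divided by size factors, taken here as the mean over the SCR and SMN-KD libraries of a cell type. The tables' other 4 value columns hold the authors' own comparison of SMN-KD with SCR (log2 fold change, its standard error, p-value and adjusted p-value) and were not used, so the knockdown is not compared here.

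Positions and lengths come from GENCODE release 44 (GRCh38), matched on the gene identifier, and promoter windows from RefSeq. The 7 printed windows equalled the genome letter for letter. Words of 31 bases were compared with all annotated transcripts. Python 3.11.15, pandas 2.3.3 and numpy 2.4.6 were used. The centred log2 ratio was tested on simulated data in which few genes were changed. That test does not show how the ratio behaves with as many differences as these cell types have. A median was taken as moved by more than 0.1 on the log2 scale or 5 percentile points, and a count by more than 1.5 times. All 34 members are named, and the other lists by counts and the 3 most extreme genes each way, of which some are not reported here. *MDM4*, *TNFRSF10A* and the marker genes printed were picked from their lists after their values were seen. The members and lists were chosen with earlier results of these data known.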

Additional observations from a re-analysis of the deposited data

How the results depend on the processing

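All 34 members kept their call in each alternative of centring, pseudocount, filter and gene matching in which they were tested, and 28 also did when a call needed 1.5-fold. At 1.5-fold, 14 of 34 members were called higher in i3Ns and 2 lower, against 2776 and 3307 of 15170 genes. All of these counts moved. With a mean of at least 100 in both tables, 30 members were left. *PMAIP1*, *FAS*, *TP53I3* and *GDF15* were then not tested, so 6 of the 30 were called higher in place of 9 and no member (0) lower. Of the 12071 genes with such means, 727 were called higher and 1119 lower, and both counts moved. The median percentile of the members in i3Ns moved from 72.3 to 67.1 among genes with a mean of at least 10. Per length, the median percentile was 53.9 in iMNs and 66.3 in i3Ns by the MANE transcript. It moved to 64.3 and 74.2 by coding length, and to 72.9 in i3Ns by the longest transcript. No replicate could be left out and no paired analysis was possible because each table holds 1 pooled mean for each gene. Without values per library, neither replicate error nor depth could be given.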
